A study of Mus musculus with 187 samples.

Results

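The BXH strains are recombinant inbred mice: offspring of a cross between C57BL/6J and C3H/HeJ were inbred by brother-sister mating until each line carried a fixed mosaic of the 2 parental genomes. At any position in the genome a BXH mouse is therefore homozygous for the allele of one parent or the other, and genes that lie close together on a chromosome are usually inherited from the same parent. A gene whose mRNA level is set by a variant in or beside the gene itself takes, in each line, the level of the parent that gave that stretch of chromosome, whereas a gene controlled from elsewhere in the genome need not follow its neighbours.

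Heart mRNA of the Hybrid Mouse Diversity Panel, a collection of inbred and recombinant inbred strains, was sequenced by strain. All libraries whose strain label starts with BXH were taken, together with those of both parents, which gave 13 libraries of 8 strains, or 6.95% of the libraries and 7.55% of the strains in the series. They were 8 BXH libraries from 6 strains and 5 parental ones. BXH6/TyJ and BXH8/TyJ had 1 female and 1 male library each. BXH9/TyJ, BXH19/TyJ and BXH20/KccJ had 1 male library each, and BXH22/KccJ had 1 female library. C3H/HeJ was represented by 1 female and 1 male, and C57BL/6J by 1 female and 2 males. Mice of every group received chow for 8 weeks and then food rich in fat and sucrose for 8 weeks more, and hearts were taken at 16 weeks of age, so no group was free of the diet. None carried a transgene or a drug treatment. With 1 animal for each of 4 strains, a value of such a strain cannot be told apart from a value of that mouse.

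Levels are counts per 1000000 counts of the library (CPM) after scaling by the trimmed mean of M values. Total estimated counts of the 13 libraries ran from 39724317 to 59999182. Transcripts of the mitochondrial genome took 25.98% and 31.6% of them in the C3H/HeJ female and male and 38.6% to 43.7% in C57BL/6J. In the BXH libraries they took 33.7% to 40.2%. The part of this share in the differences between the parents was not tested. Sums of marker transcripts are given relative to total counts, without that scaling. Transcripts of heart muscle summed to between 64908 and 98265 CPM in the 13 libraries. Atrial markers ranged from 49.4 CPM in BXH19 to 3098 CPM in BXH9, and adipose markers from 0.459 CPM in BXH19 to 23.3 CPM in the BXH6 female. Blood cell transcripts, mainly haemoglobin, summed to 27432 and 13266 CPM in the C3H/HeJ female and male and to 21806 in BXH20, against 1300 to 6854 in the other 10 libraries. Their part in the differences described here was not tested. The 2 C57BL/6J males differed by more than sampling noise, with a mean chi-square of 20.3 per gene at 1 degree of freedom, and were counted as separate samples. The same measure between female and male was 94.03 in C3H/HeJ, 44.3 in BXH6 and 17.1 in BXH8, so the C3H/HeJ libraries stood farthest apart of these 4 pairs. In bulk tissue, fewer cells of a type and less RNA per cell cannot be told apart.

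The first comparison asked which genes differed between the parents, and it used no BXH library. Of 16315 genes tested, 1683 (10.3%) differed at an adjusted p under 0.05 (edgeR quasi-likelihood test, Benjamini-Hochberg adjustment). C3H/HeJ was higher for 974 genes (5.97%) and lower for 709 (4.35%), and the median difference over all genes was 0.00 on the log2 scale. Scaling by library totals moved the median of all genes to 0.24 and gave 1929 genes higher and 334 lower, so the division by direction holds relative to the median of all genes only. Without the C3H/HeJ female 910 genes differed, and without the male 1229. Among protein-coding genes, 751 were higher and 640 lower. Processed pseudogenes were called more unevenly, with 161 of 831 higher and 26 lower in C3H/HeJ. The reads had been assigned to transcripts of the C57BL/6J reference genome, and pseudogene copies share sequence with their source genes, so these estimates are uncertain. A difference of at least 1 on the log2 scale was reached by 940 of the called genes.

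Several of the largest differences were close to presence against absence. Gvin1, an interferon-inducible very large GTPase (chr7:106156556-106215326, GRCm38), had 0 counts in both C3H/HeJ libraries and 55.8, 57.6 and 53.2 CPM in the C57BL/6J female and males. Against a floor of 3 counts over both C3H/HeJ libraries this is at least 2007-fold lower in C3H/HeJ. Klk1b22, a tissue kallikrein (chr7:44112673-44116922), showed the opposite: 0 counts in all 3 C57BL/6J libraries, and 4.66 and 4.94 CPM in the C3H/HeJ female and male, at least 222-fold higher. Both bounds count reads assigned to C57BL/6J transcripts, and the part of sequence differences between the strains was not tested. DESeq2 gave Klk1b22 an adjusted p of 0.863, with a log2 difference of 10.3.

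Among the 12 protein-coding genes that were lowest in C3H/HeJ relative to C57BL/6J were Gvin1, Lmntd1, Nxpe4, Fbxo44, Eps8l1, Rab6b, Scd4, Zfp982, Mndal, Trim12a and H2-Q7. Scd4, a stearoyl-CoA desaturase that introduces a double bond into saturated fatty acids (chr19:44333092-44346743), averaged 0.718 ± 0.326 CPM (SD, n = 2) in C3H/HeJ and 16.1 ± 11.04 CPM (SD, n = 3) in C57BL/6J. The C57BL/6J libraries themselves spread from 5.64 to 27.6 CPM for Scd4, yet none came near C3H/HeJ. The log2 difference was -4.44 ± 0.67 (SE, adjusted p = 2.15e-07, edgeR).

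Among the 12 highest in C3H/HeJ were Klk1b22, Hmga1b, Mindy4b-ps, Eno1b, H2-Q1, Kcnj14, Gbp2b, Myh2, Tchhl1, Ptprn2 and Fmn1. Hmga1b and Eno1b are copies of the genes Hmga1 and Eno1, and their estimates are uncertain for the same reason as the pseudogenes. Kcnj14, an inwardly rectifying potassium channel (chr7:45816460-45824782), was at 53.98 and 60.5 CPM in C3H/HeJ and at 0.22, 1.31 and 1.10 CPM in C57BL/6J. The log2 difference was 6.19 ± 0.35 (adjusted p = 8.03e-27, edgeR). Fmn1, a formin that nucleates actin filaments (chr2:113327736-113716767), averaged 50.6 ± 4.98 CPM (SD, n = 2) against 2.01 ± 0.31 CPM (SD, n = 3).

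Levels in the BXH strains fell for the most part onto one parent or the other. Myh7, which encodes the slow beta myosin heavy chain of the ventricle (chr14:54970684-54994626), was at 2536 and 1968 CPM in the C3H/HeJ female and male and at 222, 265 and 267 CPM in the C57BL/6J female and males. In the BXH libraries it was at 2362 and 1808 CPM in the BXH8 female and male, 2152 CPM in BXH19 and 2878 CPM in BXH22, but at 352 and 186.1 CPM in the BXH6 female and male, 145.7 CPM in BXH9 and 425 CPM in BXH20. The first 3 strains lay at the C3H/HeJ level and the other 3 near that of C57BL/6J, with no library in the gap. The sum of heart muscle transcripts, which includes Myh7, divided the libraries in the same way, with 80229 to 98265 CPM in C3H/HeJ, BXH8, BXH19 and BXH22 and 64908 to 78531 CPM in the others, and its part in the Myh7 level was not tested. Between the parents the log2 difference was 3.16 ± 0.31 (adjusted p = 3.24e-14), and among the 6 BXH strains the adjusted p was 1.93e-15 (edgeR quasi-likelihood F test).

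Myh2, a fast myosin heavy chain of skeletal muscle on another chromosome (chr11:67171027-67197517), was high in the same strains. It was at 5.12 and 5.73 CPM in C3H/HeJ, at most 0.13 CPM in C57BL/6J, 7.27 and 5.77 CPM in the BXH8 female and male, 7.48 CPM in BXH19 and 8.58 CPM in BXH22, and at most 0.08 CPM in the other 4 BXH libraries. Among the other skeletal muscle markers, Acta1, skeletal alpha actin, was at 94.97 to 455 CPM in BXH8, BXH19 and BXH22 and at 91.4 to 1210 CPM in BXH6, BXH9 and BXH20, and Mylpf and Tnnt3 were at most 0.68 CPM in any library. Their part in the Myh2 level was not tested. Pyroxd2 and Gm3375, on further chromosomes, had the same division of the strains.

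Tnni3k, a cardiac kinase that binds troponin I and affects conduction and cardiomyopathy in mice (chr3:154786291-155055407), was at 20.6 and 22.3 CPM in C3H/HeJ against 73.1, 95.98 and 93.7 CPM in C57BL/6J. BXH20 was the single strain at the C3H/HeJ level, with 18.97 CPM. In the other 7 BXH libraries Tnni3k ranged from 74.03 CPM in BXH22 to 109.1 CPM in the BXH6 male. The parental difference was -2.03 ± 0.19 on the log2 scale (adjusted p = 3.56e-15), and the adjusted p among BXH strains was 5.05e-10 (edgeR). The parental call was lost on both TPM scales (adjusted p = 0.052 and 0.0661, limma). Fmn1 was high in a single strain too: 56.1 and 49.2 CPM in the BXH8 female and male, and 1.73 to 2.32 CPM in the other 6 BXH libraries.

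**Figure D1:**
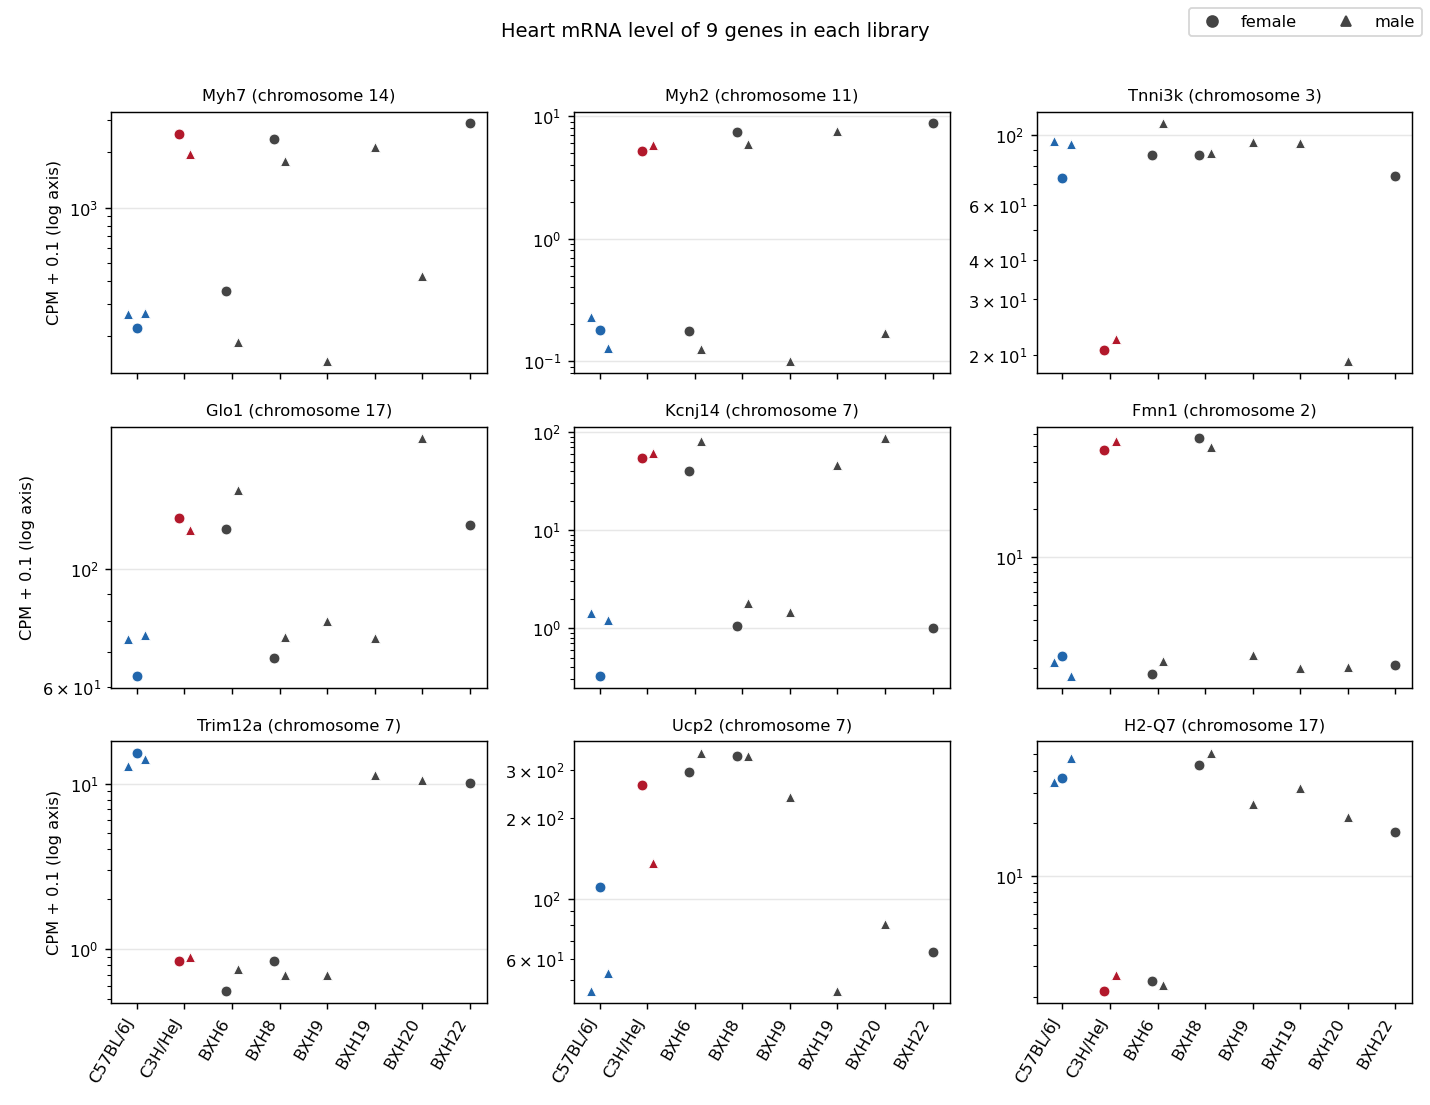
CPM plus 0.1 on a log axis for 9 genes in each of the 13 libraries, with circles for females and triangles for males, C57BL/6J in blue, C3H/HeJ in red and BXH strains in grey. Each BXH strain sits at one parental level for most of these genes, and which strains sit at which level differs from gene to gene: Tnni3k is low in BXH20 alone at 18.97 CPM, and Myh7 is high in BXH8, BXH19 and BXH22.

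To describe all such genes on one scale, a position between the parents was computed: 0 is the C57BL/6J level and 1 the C3H/HeJ level, on sex-adjusted log2 CPM. The set held 542 genes that differed between the parents by at least 1 on the log2 scale, averaged at least 1 CPM over the parental libraries, had no overlap between parental libraries and lay on chromosomes 1 to 19 or X. It was made of 329 genes higher and 213 lower in C3H/HeJ, 436 of them protein-coding. The parental libraries chose these genes, so the parental differences in the set are a description, while the BXH levels took no part in the choice. A value over 0.75 was called the C3H/HeJ side and one under 0.25 the C57BL/6J side.

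Over all 3252 pairs of a gene and a strain, 75.1% were on one side, 1199 on that of C3H/HeJ and 1242 on that of C57BL/6J. The remaining 24.9% lay between. By strain, the C3H/HeJ side took 59.4% of the genes that had a side in BXH6, 52.8% in BXH22, 50.2% in BXH19, 48.4% in BXH20, 44.5% in BXH9 and 39.5% in BXH8. The 95% Wilson intervals were 54.5% to 64.05% for BXH6 and 34.8% to 44.3% for BXH8, and those of BXH9, BXH19, BXH20 and BXH22 all overlapped one another. These intervals cover counting error only and treat genes as separate, although neighbouring genes share a stretch of chromosome.

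The F test among the 6 strains called 1125 of the 16315 genes (6.9%). Of the 542 genes of the set it called 345, or 63.7%. Of the 14632 genes that did not pass between the parents it called 366, or 2.50%. Read from the other end, 759 of the 1125 genes that differed among the strains (67.5%) also differed between the parents. Both tests took their spread largely from the same libraries, and low spread and high counts ease both calls. The part of this in the shares was not tested.

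The female and male of a strain were mostly on the same side. The BXH6 female and male were on the same side for 332 of the 349 genes that had a side in both libraries (95.1%), and those of BXH8 for 334 of 337 (99.1%). The 26 pairs of libraries from different strains shared a side for between 42.3% and 71.7% of genes, with a median of 53.4%.

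Sides followed the order of genes on the chromosomes. For genes of the set under 1 Mb apart, 81.5% of comparisons within a strain were on the same side. The share was 75.2% at 1 to 5 Mb, 64.2% at 5 to 20 Mb, 57.9% at 20 to 50 Mb and 47.9% beyond 50 Mb, against 50.2% for genes on different chromosomes. With protein-coding genes alone the nearest pairs reached 82.1% and the pairs on different chromosomes 50.1%. These are shares over pairs that reuse the same genes and strains and carry no test.

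**Figure D2:**
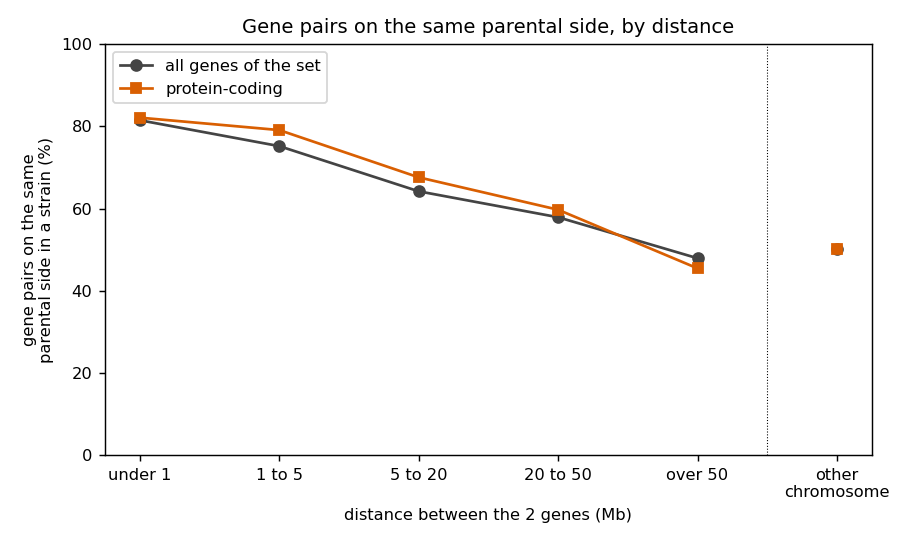
Percent of gene pairs on the same parental side within a BXH strain, by the distance between the 2 genes in Mb, for all 542 genes of the set and for the protein-coding ones. The share declines from 81.5% under 1 Mb to 47.9% beyond 50 Mb for all genes, and is 50.2% on different chromosomes.

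Long uninterrupted runs of genes on one side spanned large parts of a chromosome, and those of 5 strains are given. In BXH8 a run of 26 genes on the C57BL/6J side reached from Rsph3b to Ppp1r21 (chr17:6904413-88588367), and in BXH19 a run of 20 such genes covered chr17:24718116-89910449. In BXH20, BXH22 and BXH6 the longest run of the strain was on the C3H/HeJ side, with 16 genes from Cacng6 to Kcnj14 in BXH20 (chr7:3424195-45824782), 15 genes from Cox18 to Baiap2l1 in BXH22 (chr5:90214724-144358112) and 14 genes from Lrrc4b to Xntrpc in BXH6 (chr7:44429018-102096864). Genes that lay between the parents were passed over in these runs.

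**Figure D3:**
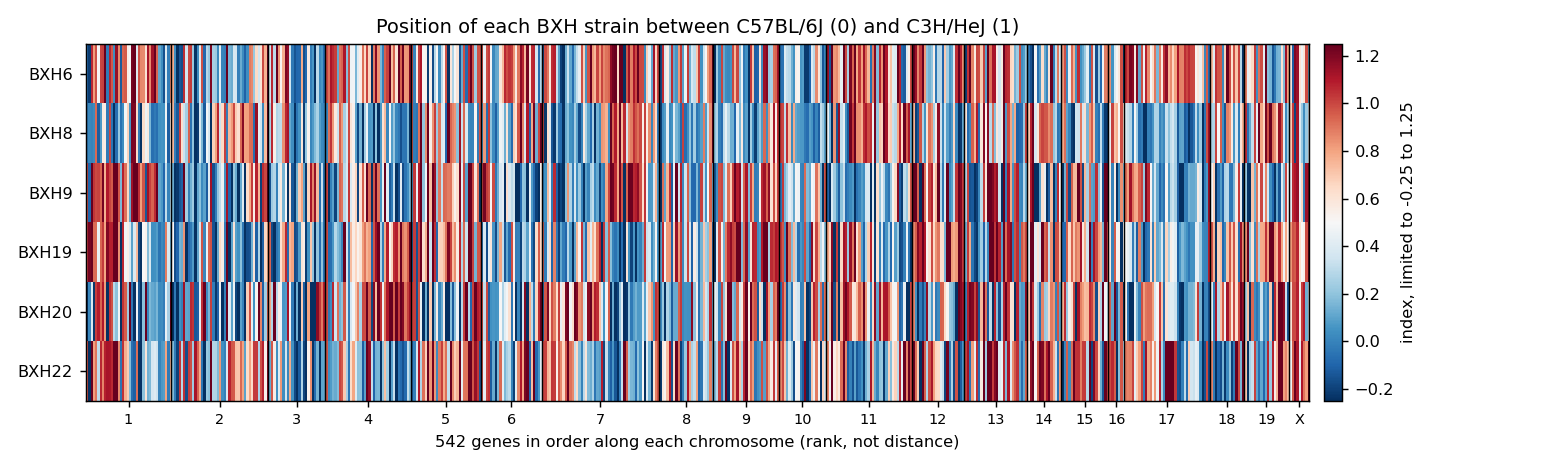
Position of each BXH strain between C57BL/6J (0, blue) and C3H/HeJ (1, red) for the 542 genes, in their order along chromosomes 1 to 19 and X, 1 column a gene. Red and blue stretches within a chromosome break at different places in different strains, for instance on chromosomes 4, 7 and 17.

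Chromosome 7, with 52 genes of the set, held genes with many different divisions of the strains, 3 of which are described. Near its start Eps8l1, an actin regulator (chr7:4460674-4480487), was at 0.33 and 0.27 CPM in C3H/HeJ and at 0.23 to 0.31 CPM in BXH6, BXH20 and BXH22, against 5.96 to 10.1 CPM in C57BL/6J and 7.74 to 15.2 CPM in BXH8, BXH9 and BXH19. Further along the chromosome, Kcnj14 was at 40.2 and 80.8 CPM in the BXH6 female and male, 46.4 CPM in BXH19 and 86.1 CPM in BXH20, and at 0.91 to 1.72 CPM in BXH8, BXH9 and BXH22. Klk1b22, on the same stretch of chromosome 7, had the same division, with 2.86 to 5.66 CPM in BXH6, BXH19 and BXH20 and 0 CPM in the others.

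Towards the far end of chromosome 7 lay a group of antiviral genes. Trim12a, of the TRIM5 family of restriction factors (chr7:104299894-104315466), was at 0.74 and 0.80 CPM in C3H/HeJ and 12.6 to 15.2 CPM in C57BL/6J. It was at 0.46 to 0.75 CPM in BXH6, BXH8 and BXH9 and at 11.2, 10.4 and 10.1 CPM in BXH19, BXH20 and BXH22. Gvin1 had the same division, with 0 CPM in every library of BXH6, BXH8 and BXH9 and 52.6, 28.1 and 44.4 CPM in BXH19, BXH20 and BXH22. In all, 12 genes of the set divided the strains in this way and 10 of them were on chromosome 7, among them Ucp2, an uncoupling protein of the inner mitochondrial membrane (chr7:100493337-100502020). Ucp2 ranged from 239 to 346 CPM in BXH6, BXH8 and BXH9 and from 45.5 to 80.7 CPM in the other strains, while C3H/HeJ was at 264 and 135.5 CPM and C57BL/6J at 111.2, 45.6 and 52.98 CPM. Without the C3H/HeJ female, its parental difference of 1.51 ± 0.33 on the log2 scale became 0.96 and did not pass (adjusted p = 0.208, edgeR).

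In the major histocompatibility complex on chromosome 17, some genes were at the C3H/HeJ level in BXH6 and at the C57BL/6J level in the other strains. Of 24 genes of antigen presentation tested, 2 were higher and 9 lower in C3H/HeJ (45.8% called, against 10.3% of all genes), and their median log2 difference was -0.82 against 0.00 for all genes. H2-Ea-ps, the class II E alpha chain, which is not expressed from the b haplotype of C57BL/6J (chr17:34341959-34344645), was at 4.49 and 4.23 CPM in C3H/HeJ and 7.24 and 6.61 CPM in the BXH6 female and male. It was at or below 0.04 CPM in all other libraries. H2-Q1, a non-classical class I gene (chr17:35320405-35325099), was likewise at 4.96 and 4.45 CPM in BXH6 and at most 0.09 CPM in the other BXH strains. H2-Q7, another class I gene (chr17:35439155-35443773), was at 2.37 and 2.24 CPM in BXH6, as in C3H/HeJ at 2.05 and 2.57 CPM, and at 17.8 to 50.6 CPM in the other BXH libraries. H2-Q6 and H2-Q7 are near-identical copies, and these haplotypes differ from the reference transcripts, so the split of reads between them is uncertain.

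The class II genes H2-Aa, H2-Ab1 and H2-Eb1 were lower in C3H/HeJ but did not pass among the BXH strains. H2-Eb1, a class II beta chain, averaged 6.09 ± 0.28 CPM (SD, n = 2) in C3H/HeJ and 34.2 ± 10.9 CPM (SD, n = 3) in C57BL/6J. In the BXH strains it ran from 5.92 CPM in BXH22 to 30.8 CPM in the BXH8 male, with BXH6 at 8.98 and 8.15 CPM and the others at 15.6 CPM or more, and the adjusted p among strains was 0.314 (edgeR). Class II genes are expressed by antigen-presenting cells. Macrophage markers summed to 193 and 199 CPM in C3H/HeJ and to 146.8 to 197 CPM in C57BL/6J. In the BXH libraries they ran from 84.8 CPM in BXH20 to 182.7 CPM in the BXH8 male, with 105.9 CPM in BXH22. Neither their part in the class II levels nor the part of sequence differences from the C57BL/6J transcripts was tested.

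Of 32 interferon response genes tested, 5 passed between the parents, each of them lower in C3H/HeJ (15.6%, against 4.35% of all genes lower), and the median log2 difference of the 32 was -0.46. Besides Trim12a and Trim34a these were the DNA sensor family members Mndal, Ifi203 and Ifi209 on chromosome 1. Mndal (chr1:173849126-173942491) was at 1.14 and 1.04 CPM in C3H/HeJ and at 16.2 to 20.4 CPM in the 8 BXH libraries, near C57BL/6J at 17.7 to 24.01 CPM. Ifi203, which overlaps it, was at 7.76 and 8.501 CPM in C3H/HeJ and at 35.004 to 52.5 CPM in the BXH libraries. Ifi209, on the same stretch (chr1:173630917-173647928), was instead at 0.11 to 0.40 CPM in BXH6 and BXH9 and 0.94 to 1.80 CPM in the other BXH strains. Its call between the parents was lost without the C3H/HeJ female (adjusted p = 0.164, edgeR) and on both TPM scales. The members of this family resemble each other in sequence, and how reads were shared among them is uncertain.

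Among 17 heart muscle genes tested Myh7 alone passed between the parents (5.88%, below the 10.3% of all genes). Of 13 heart stress genes, Tnni3k was lower, and Ccn2, a matricellular growth factor induced in fibrosis, and Fhl1 were higher in C3H/HeJ (23.1% called). Ccn2 averaged 71.8 ± 11.7 CPM (SD, n = 2) against 32.4 ± 6.02 CPM (SD, n = 3), with adjusted p = 0.0368 by edgeR, and ranged from 24.97 to 79.2 CPM in the BXH libraries with both extremes in BXH6. This call was lost when any 1 parental library was left out (adjusted p from 0.0503 to 0.326), and that of Fhl1 without the C3H/HeJ female or 1 C57BL/6J male (highest adjusted p = 0.142, edgeR). Of 13 genes of calcification and phosphate handling, Bmp4, a bone morphogenetic protein, and Sparc, a collagen-binding matrix protein, were higher in C3H/HeJ by 1.02 ± 0.24 and 0.69 ± 0.18 on the log2 scale (15.4% called). Neither passed among the BXH strains, and both calls were lost without the C3H/HeJ female (adjusted p = 0.0869 and 0.0633, edgeR). C3H/HeJ is known for heart calcification, and the transporter gene Abcc6, in which this strain carries a known variant, did not pass the filter on low counts.

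Of 37 genes of fatty acid use, Ucp2 was higher and Acot1, a cytosolic acyl-CoA thioesterase, lower in C3H/HeJ, at 8.27 ± 4.34 CPM (SD, n = 2) against 31.3 ± 11.8 CPM (SD, n = 3). These were 5.41% of the list, a share below that of all genes, and the Acot1 call was lost without the C3H/HeJ male (adjusted p = 0.158, edgeR). Acsl6, an acyl-CoA synthetase, did not differ at the threshold (10.04 and 16.4 CPM against 10.3 to 19.7 CPM, adjusted p = 0.895, edgeR). Of 33 detoxification genes, Alad and Glo1 were higher and Gsta1 lower (9.09%, near the share of all genes). Alad, an enzyme of haem synthesis (chr4:62509169-62519918), was at 122.8 and 97.4 CPM in C3H/HeJ, 24.8 to 33.3 CPM in C57BL/6J, 29.1 CPM in BXH19, 37.6 CPM in BXH20 and 85.9 to 113.3 CPM in the other BXH libraries. Blood markers summed to 3584 CPM in BXH19, to 21806 CPM in BXH20 and to 1300 to 3915 CPM in the other BXH libraries, and their part in the Alad level was not tested.

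Glo1, glyoxalase 1, which removes methylglyoxal (chr17:30584936-30626871), was at 125 and 118.4 CPM in C3H/HeJ and at 62.9 to 75.0 CPM in C57BL/6J. BXH8, BXH9 and BXH19 were at 68.1 to 79.7 CPM, and BXH6, BXH20 and BXH22 at 119 to 176.1 CPM. BXH20 had the highest value, above both C3H/HeJ libraries, with a position of 1.66 on the scale where C3H/HeJ is 1. Of 21 genes of NADPH supply and peroxide defence, Gpx1 was higher and Mgst1 and Me1 lower in C3H/HeJ (14.3%, against 10.3% of all genes). Gpx1, a glutathione peroxidase, was at 73.3 and 54.99 CPM in C3H/HeJ, 32.8 to 46.8 CPM in C57BL/6J, 97.95 CPM in BXH20 and 31.5 to 40.1 CPM in the other BXH libraries. Its high libraries were also those with high blood markers, among them Hba-a1 at 6251 and 2706 CPM in C3H/HeJ and 5909 CPM in BXH20 against 281 to 897 CPM elsewhere, and the part of blood in the Gpx1 level was not tested. The Gpx1 and Hba-a1 calls between the parents were lost without the C3H/HeJ female and without either C57BL/6J male. Those of Me1 and Gsta1 were lost in most leave-one-out fits. Over 15 alternative settings the calls of Gpx1, Gsta1 and Me1 were lost in 6, 7 and 10.

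Nnt, nicotinamide nucleotide transhydrogenase, lacks several exons in C57BL/6J and is listed under 2 identifiers at the same place on chromosome 13. ENSMUSG00000116207 had 269 and 279 CPM in C3H/HeJ, 142.3 to 183 CPM in C57BL/6J and 230 to 394 CPM in the BXH libraries, with a parental log2 difference of 0.77 ± 0.40 that did not pass (adjusted p = 0.271, edgeR). It passed when the spread was taken from the 5 parental libraries alone or from the 13 libraries (adjusted p = 0.00422 and 0.00361, edgeR). ENSMUSG00000025453 had 130 and 194 CPM in C3H/HeJ and 130 to 212 CPM in C57BL/6J (adjusted p = 0.88, edgeR). Among the BXH strains it passed (adjusted p = 0.0221, edgeR F test), with 444 and 398 CPM in the BXH6 female and male at the top and 151.7 CPM in BXH20 at the bottom. How reads were shared between both identifiers is uncertain. Tlr4, the lipopolysaccharide receptor that carries a coding mutation in C3H/HeJ, was at 7.14 and 14.4 CPM against 6.69 to 12.04 CPM (adjusted p = 0.864, edgeR). Of 19 genes of its pathway, Tirap, an adaptor of the receptor, was the one that passed (5.26%, below the share of all genes), at 0.51 ± 0.14 higher on the log2 scale. The Tirap call was lost without the C3H/HeJ male (adjusted p = 0.115, edgeR) and on TPM with a pseudocount of 0.1 (adjusted p = 0.0578, limma).

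Some genes were on the same side in every strain, or at levels away from both parents. Of the 213 genes with a side in all 6 strains, 18 were on the C57BL/6J side in every strain and 12 on the C3H/HeJ side. Tchhl1 was one of the former, with 1.596 and 3.61 CPM in C3H/HeJ and at most 0.12 CPM in any BXH or C57BL/6J library. Rab6b, a neuronal Rab GTPase (chr9:103111787-103185276), was at 17.1 to 22.2 CPM in C57BL/6J, and its BXH levels from 0.52 to 6.13 CPM all lay below that. Mindy4b-ps was at 40.4 and 36.3 CPM in C3H/HeJ and at 9.10 to 17.6 CPM in BXH6, BXH8 and BXH19, levels below both C3H/HeJ libraries although their positions of 0.775 to 0.841 counted as the C3H/HeJ side.

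Genes were also compared with their nearest neighbours of the set on either side within 5 Mb. Where both neighbours were on one side, the gene between them was on that side in 647 of 731 cases (88.5%). Among protein-coding genes the share was 89.8%, and among processed pseudogenes 20 of 39. Myh2 stood against its neighbours in 3 of 4 strains, BXH6, BXH20 and BXH22.

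The next comparison set each BXH strain against each parent. BXH6 differed from C3H/HeJ in 450 genes (2.76%) and from C57BL/6J in 836 (5.12%). BXH8 differed from C3H/HeJ in 632 genes (3.87%) and from C57BL/6J in 507 (3.11%). The counts against C3H/HeJ and C57BL/6J were 447 (2.74%) and 447 (2.74%) for BXH9, 380 (2.33%) and 462 (2.83%) for BXH19, 401 (2.46%) and 475 (2.91%) for BXH20, and 367 (2.25%) and 448 (2.75%) for BXH22. Strains with 2 libraries had more power than those with 1, and each strain's contrasts share its own libraries.

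Genes that lay beyond both parents in the same direction, with both adjusted p under 0.05, were few. They numbered 27 in BXH6 (0.165%), 11 in BXH8 (0.0674%), 17 in BXH9 (0.104%), 48 in BXH19 (0.294%), 20 in BXH20 (0.123%) and 18 in BXH22 (0.11%). These calls fell on 133 genes, 8 of which were called in 2 strains and none in 3 or more. For a strain with 1 library, the standard errors and p-values take its spread from the other strains, and the lone mouse is assumed to vary like them. The BXH8 count fell to 5 without its female and 4 without its male, and that of BXH6 to 16 without its female. In BXH19, 39 of the 48 genes were lower than both parents. Genes were kept by their counts in the parents, so a gene silent in both parents could not be called higher, and this filter can tilt the split by direction.

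Most of the lower genes of BXH19 lay in one place. A span of 2.95 Mb near the end of chromosome 2 (chr2:175086501-178034022) held 26 of them, all lower, out of 41 genes tested there. Of the 41 genes, 34 were annotated as protein-coding and 8 carried Zfp symbols, for zinc finger proteins, while 32 had only a Gm model name. Zfp971 (chr2:178023284-178034022) was at 0.02 CPM in BXH19, at 11.7 and 13.8 CPM in C3H/HeJ, at 8.07, 12.3 and 10.1 CPM in C57BL/6J and at 9.80 to 14.97 CPM in the other BXH libraries. Zfp970 was at 0.54 CPM in BXH19 and at 32.2 to 44.2 CPM in the other 12 libraries.

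Zfp965 and Gm14326 were among the genes of the span with 0 counts in BXH19. Against a floor of 3 counts in that library, Gm14326 was at least 151.9-fold lower than in C57BL/6J and at least 157.9-fold lower than in C3H/HeJ, and Zfp965 at least 27.5-fold and 25.1-fold lower. In all, 21 of the 41 genes were under 0.1 CPM in BXH19, and 13 of these were at 0.5 CPM or more in each of the other 12 libraries. Genes of the span that were not called included Zfp966, Zfp968, Zfp972 and Gm14399, with Zfp966 at 8.19 CPM in BXH19 and at 10.6 to 15.7 CPM in the other 12 libraries. The summed level of the 41 genes was 55.01 CPM in BXH19, 250 to 320 in the other 7 BXH libraries and 258 to 298 in the parents. No other library of the series was as low, the next being at 87.3. The span was singled out after the values were seen, rests on 1 mouse, and its genes resemble each other in sequence. In BXH19, absent genes, genes with less transcription and genes that differ from the C57BL/6J transcripts used for counting cannot be told apart.

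**Figure D4:**
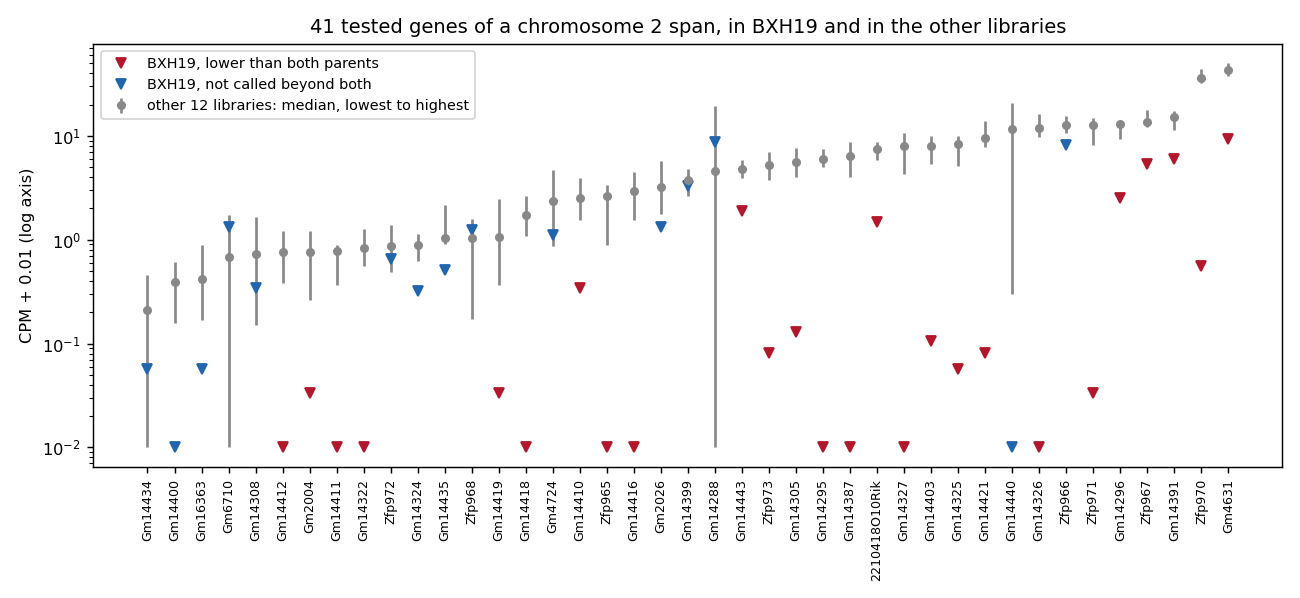
CPM plus 0.01 on a log axis for the 41 tested genes of the chromosome 2 span, ordered by their median in the other 12 libraries (grey point, with a bar from lowest to highest). Triangles give BXH19, red for the 26 genes called lower than both parents: Zfp970 is at 0.54 CPM there against at least 32.2 CPM in every other library.

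BXH20 had a smaller group, of 4 among 59 genes tested in a span of chromosome 17. The heat shock genes Hspa1b, Hspa1a and Hspa1l were higher than both parents, and H2-T24, a class I gene, was lower, at 5.22 CPM against at least 9.69 CPM in the other 12 libraries. Hspa1b (chr17:34956436-34959238), a chaperone induced by heat and other stress, was at 28.3 CPM in BXH20 and at 1.16 to 3.41 CPM in the other 12 libraries. Its log2 difference was 2.96 ± 0.58 from C3H/HeJ and 3.92 ± 0.53 from C57BL/6J (adjusted p = 0.000244 and 2.42e-08, edgeR). The same mouse had the high blood markers given above, and its skeletal muscle markers summed to 1126 CPM. Their part was not tested. Ephb6, an ephrin receptor, was the lowest relative to both parents, at 0.09 CPM against 0.92 to 1.83 CPM. It did not pass among the BXH strains (adjusted p = 0.131, edgeR quasi-likelihood F test).

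In BXH6, where a female and a male were available, Sfi1, a centrosomal protein (chr11:3131850-3193463), was at 110 and 66.5 CPM and at 9.21 to 16.0 CPM in the other 11 libraries. Ctnna3, the alpha T-catenin of the intercalated disc of heart muscle (chr10:63430098-65003667), was at 4.18 and 3.22 CPM against 17.4 to 34.5 CPM in the other 11 libraries. The Ctnna3 level was -2.73 ± 0.42 from C3H/HeJ and -2.89 ± 0.41 from C57BL/6J on the log2 scale (adjusted p = 1.22e-06 and 4.18e-08, edgeR), and both mice showed it. In BXH8, Capn11, a calpain protease known from testis, was at 8.33 and 5.52 CPM in the female and male, and at most 1.89 CPM elsewhere. Muc4, a membrane mucin, was at 0.25 and 0.08 CPM in BXH8 and from 0.18 to 1.46 CPM in the parents, so its libraries overlapped those of C57BL/6J.

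Slc15a2, a proton-coupled peptide transporter (chr16:36750177-36784962), was beyond both parents in BXH9 and BXH22. It was at 15.7 and 14.4 CPM there, at 0.44 CPM in both C3H/HeJ libraries, at 2.28 to 4.46 CPM in C57BL/6J and at 0.59 to 4.49 CPM in the other BXH libraries. Uchl1, a neuronal ubiquitin hydrolase, was at 0.47 CPM in BXH9 and from 1.87 to 5.36 CPM in the parents. In BXH22, Col4a3, a chain of basement membrane collagen (chr1:82586921-82722059), was at 17.0 CPM and in the other 12 libraries at 3.32 to 5.16 CPM. Its log2 difference was 2.00 ± 0.40 from C3H/HeJ and 2.24 ± 0.36 from C57BL/6J (adjusted p = 0.000332 and 3.41e-06, edgeR).

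The last comparison asked whether BXH strains left the range of their parents less often than other inbred strains did. A gene was outside the range when its position was under -0.5 or over 1.5. Over the 542 genes, 2.71% ± 1.42 (SD, n = 6 strains) were outside in the BXH strains, from 1.11% in BXH8 to 4.98% in BXH9. In the 27 other inbred strains, neither recombinant inbred nor parental but including some close to a parent, such as C57BLKS/J and C58/J with 20.4% and 27.8% of sided genes on the C3H/HeJ side and CBA/J with 83.9%, 5.45% ± 1.99 (SD, n = 27) were outside, from 2.21% to 12.5%. The difference of -2.75 percentage points had a two-sided p of 0.00377 in an exact permutation test over all 1107568 divisions of the strains. BXH strains carry only the 2 parental genomes that set this range, so the design itself favours a lower share in them. The test also takes strains as exchangeable, although they differ in relatedness to the parents. The share of genes between the sides was 24.9% ± 1.15 (SD, n = 6) in the BXH strains and 24.5% ± 2.98 (SD, n = 27) in the others, a difference that did not pass (exact permutation p = 0.763).

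**Figure D5:**
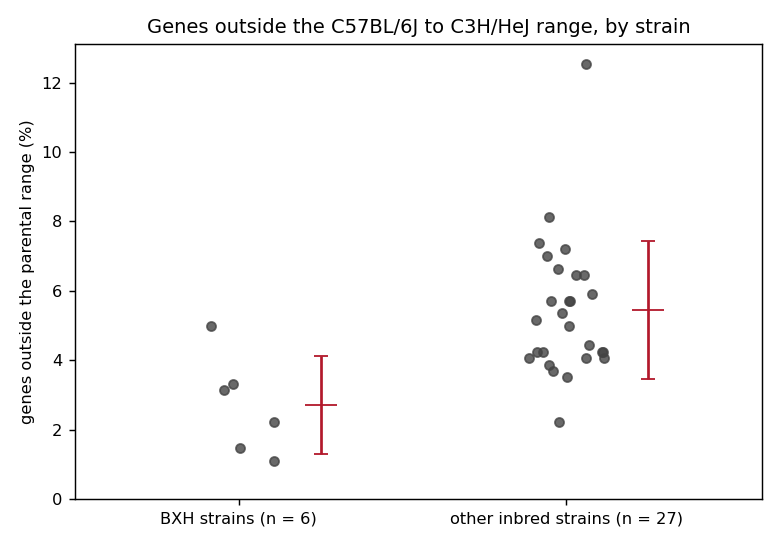
Percent of the 542 genes outside the range from C57BL/6J to C3H/HeJ, 1 point a strain, with the mean and SD in red. The 6 BXH strains average 2.71% and the 27 other inbred strains 5.45%, and the 2 groups overlap.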

How the data were processed

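Hearts had been processed to mRNA libraries and sequenced by the authors, who quantified reads with kallisto 0.46 against transcripts of GRCm38.p6, the C57BL/6J reference. The deposited tables hold estimated counts and TPM, a length-scaled share of transcripts, per gene, with no alignment files used here. Estimated counts were rounded (34.1% of values were not whole), and 35935 of 36558 identifiers matched GENCODE M21, which gave symbols and positions; the others held 0.477% of counts. The deposited TPM values served for alternatives only.

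Genes were kept by filterByExpr on the 5 parental libraries. Parents were contrasted with edgeR 4.0.16 (TMM, quasi-likelihood, strain and sex terms) on the 179 libraries other than BXH, which share the estimate of spread; the BXH contrasts used every library. P-values were adjusted over all 16315 genes by the Benjamini-Hochberg method. Replicates are single mice, and nothing in the labels pairs them. Positions between parents used log2 CPM with a prior count of 2. Named genes were the 12 largest protein-coding differences in each direction with a mean of at least 1 CPM, up to 4 called members of each gene list, 7 genes fixed by name, and for each strain 2 genes beyond both parents and the longest run. Members, lists and rules were chosen with earlier results of these data known. The fits were tested on simulated counts. Alternatives were DESeq2 1.42.0, limma-trend on TPM with pseudocounts of 1 or 0.1 before the log2, other scalings, filters, covariates and library sets. Promoter sequences were not used, since the data do not bear on them. Some items that these rules named are not reported here.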

Additional observations from a re-analysis of the deposited data

How the results depend on the processing

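The number of genes that differed between the parents stayed within 1.5 times of 1683 under other size factors (1686), DESeq2 (1673), no filter (1495), the 5 parental libraries alone (1858), the 13 libraries (1614), no sex term (1531), the label number as a covariate (1604), library totals (2263) and limma-trend on log2(TPM + 0.1) (2388), but was 2653 on log2(TPM + 1). The division by direction depended on the scaling. Genes higher in C3H/HeJ numbered 1929 with totals as scaling, and 2457 or 2196 on TPM with the larger or smaller pseudocount, and genes lower 334, 196 and 192; the median of all genes moved to 0.24, 0.28 and 0.37 on the log2 scale. The cause was not tested. Leaving out 1 parental library gave 910 to 1504 genes in all, 551 to 883 higher and 359 to 628 lower, the lowest each time without the C3H/HeJ female.

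Genes that differed among the BXH strains numbered 797 with the 13 libraries and 816 with library totals, and 897 to 1087 with 1 library of BXH6 or BXH8 left out. Calls beyond both parents, counted per gene and strain, numbered 205 with the 13 libraries and at least 130 with 1 library left out. The share on the C3H/HeJ side in BXH6 rose to 64.2% with a parental log2 difference of at least 2, and it was 57.5% to 61.2% with 1 of its libraries left out; for BXH8 the latter range was 39.4% to 39.4%. The other shares stayed within their intervals under the 5 alternatives run. With 1 library per strain the difference in genes outside the range was -3.69 percentage points (exact permutation p = 0.00712).

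Of 735 values for the 49 named genes, 672 kept direction and side of the threshold, 50 kept direction but missed the threshold, 2 passed it and 11 changed sign. The sign changes were those of genes that had not passed: Acsl6 moved to 0.15 with library totals, 0.0035 with the label number, 0.34 and 0.41 on the TPM scales, and -0.24 to 0.073 with 1 parental library left out; Nnt as ENSMUSG00000025453 to 0.10, 0.17 and 0.17 with totals and both TPM scales, and -0.49 to 0.11 with 1 library left out; and Tlr4 ran from -0.34 to 0.63 with 1 library left out. No paired analysis was possible because the labels give the libraries no shared replicate numbers. With 1 animal for each of 4 strains and 2 or 3 for each parent, a gene that did not pass is not shown to be unchanged.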
